A study of Mus musculus with 25 samples.

Results

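The core circadian clock genes examined here were 10 genes chosen by symbol: Arntl, Clock, Npas2, Cry1, Per1, Per2, Per3, Nr1d1, Nr1d2 and Dbp. Each gene's level was the sum of transcripts per 1000000 (TPM) over all of its transcripts in each library, divided by a factor per library that set the median gene ratio between libraries to the same value (scaled TPM). Of 35969 genes with a listed transcript, 11984 reached a mean of 1 scaled TPM over the 25 mice and were tested, and 9 of the 10 clock genes were among them. Npas2 was below that minimum, with a mean of 0.471, and was described by its levels and by a fit with no minimum.

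The molecular clock is a feedback loop of transcription. ARNTL (also called BMAL1) pairs with CLOCK or NPAS2, binds E-box sequences and switches on the Per, Cry, Nr1d and Dbp genes, and the PER and CRY proteins then block that pair. NR1D1 and NR1D2 (REV-ERB alpha and beta) repress Arntl, and DBP acts on D-box sequences of further genes. In a heart sampled around the clock, Arntl, Npas2 and Clock therefore peak close to the time at which Dbp, Nr1d1 and the Per genes are low, while Cry1 is delayed relative to Per and Nr1d genes.

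Poly(A) RNA of left ventricle was sequenced from male mice in 5 groups of 5. WT mice, or littermates with 1 disrupted copy of Gpx4 in the whole body (GPx4+/-), were kept from 8 to 10 weeks of age for 16 weeks on a low-fat chow (CNTL) or a high fat high sucrose diet (HFHS), on a background backcrossed to C57BL6/J, and the remaining group of WT mice on HFHS drank 80 mM carnosine from 7 weeks into the diet (WT HFHS + Carnosine). All mice were fasted for 8 h and then received a bolus of dextrose or of saline, and the labels do not say which mouse received which. The clock time at which each heart was taken is not given in the sources used here, so a difference in clock phase and a difference in level at a fixed phase cannot be told apart. In these bulk samples a change in the number of cells of a type and in RNA per cell cannot be told apart either.

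The libraries matched their labels for genotype. Gpx4, the targeted gene, lay between 251 and 383 scaled TPM in the 10 GPx4+/- mice and between 591 and 778 in the 15 WT mice. Ventricular markers (6 of 6 measured) summed to 33940 to 44640 scaled TPM per mouse, while 3 mice carried atrial markers (6 of 6 measured) at 2729 to 7443, against group medians of 49.49 to 257.9, and GPx4+/- CNTL replicate 2 carried hepatocyte markers (6 of 6 measured) at 1213, against group medians of 2.303 to 14.92. The 3 atrium-rich mice, those above 2000 scaled TPM, a limit set after the sums were seen, were WT CNTL replicate 3, GPx4+/- CNTL replicate 1 and GPx4+/- HFHS replicate 4. The hepatocyte-rich GPx4+/- CNTL replicate 2 also carried atrial markers, at 1500. The files hold TPM, which keeps no read depth, so the depth behind each value is unknown and no counting interval is given. WT HFHS + Carnosine replicate 5 stood apart in the clock genes themselves, and the carnosine and correlation results are given with and without it.

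The windows of 250 bases before a transcription start that hold E-box or D-box letters are shown here because E-box and D-box letters are those that the CLOCK and ARNTL pair and DBP, respectively, are known to bind. RefSeq promoter sequences (GRCm38.p6) matched 9 of the 10 genes, at 13 start sites. Per2 had no matching sequence, so its start region was not searched. The motifs searched, on both strands, were the E-box CACGTG, the variant CACGTT, the D-box TTATGTAA or TTACGTAA, the ROR element TAGGTCA or TGGGTCA, and the cAMP response element TGACGTCA. Capitals mark a match, written as it reads on the gene's strand, so that the variant CACGTT appears as its reverse complement.
Cry1, chr10:85185055-85185304, minus strand: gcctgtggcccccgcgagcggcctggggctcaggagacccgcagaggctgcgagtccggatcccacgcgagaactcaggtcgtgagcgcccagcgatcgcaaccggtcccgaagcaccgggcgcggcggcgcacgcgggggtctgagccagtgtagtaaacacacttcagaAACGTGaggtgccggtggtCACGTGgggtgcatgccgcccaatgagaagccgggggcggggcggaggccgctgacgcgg
Per1 (first start site), chr11:69098699-69098948, plus strand: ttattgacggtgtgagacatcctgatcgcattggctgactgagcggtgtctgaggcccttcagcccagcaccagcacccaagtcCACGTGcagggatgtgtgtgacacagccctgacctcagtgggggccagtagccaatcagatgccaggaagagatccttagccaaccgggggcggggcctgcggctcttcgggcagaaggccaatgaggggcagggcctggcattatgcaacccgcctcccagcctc
Per3, chr4:151044666-151044915, minus strand: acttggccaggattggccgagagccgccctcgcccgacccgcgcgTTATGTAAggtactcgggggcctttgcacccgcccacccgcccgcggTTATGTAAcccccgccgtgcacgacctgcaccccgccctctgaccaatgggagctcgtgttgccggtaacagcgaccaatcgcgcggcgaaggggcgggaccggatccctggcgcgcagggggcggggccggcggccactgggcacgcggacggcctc
Nr1d1, chr11:98775378-98775627, minus strand: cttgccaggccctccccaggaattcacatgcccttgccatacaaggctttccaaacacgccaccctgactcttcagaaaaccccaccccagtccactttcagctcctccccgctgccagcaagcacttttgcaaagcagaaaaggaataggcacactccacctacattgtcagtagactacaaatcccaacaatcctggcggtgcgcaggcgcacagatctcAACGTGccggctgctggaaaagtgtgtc
The E-box stood 60 bases before the Cry1 start and 166 bases before the Per1 start, and 6.02% of all 32851 RefSeq promoter windows of this length held one. The variant stood at 79 bases in Cry1 and 28 bases in Nr1d1, and 3.85% of windows held it. Per3 held the D-box at 205 and at 158 bases before its start, letters that 0.931% of windows held. ROR element letters (5.38% of windows) and cAMP response element letters (1.55%) were in none of the 13 windows. In the GENCODE annotation, 10 bases of the Cry1 window and 1 base of the Per1 window lie in an exon of the same gene, while the Per3 and Nr1d1 windows lie outside their genes, the former within the span of Camta1 but in no exon. A match is a description of letters and was not tested for binding.

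The ventricle held far more message of the output and REV-ERB genes than of the activators. On the length-corrected TPM scale the order of mean levels was Dbp (67.2 ± 18.0 scaled TPM, SD, n = 25), Nr1d2 (33.8 ± 4.06), Nr1d1 (30.4 ± 11.5), Per1 (24.7 ± 4.05), Per3 (7.96 ± 1.66), Per2 (6.58 ± 1.35), Clock (6.13 ± 1.23), Cry1 (4.29 ± 0.651), Arntl (1.45 ± 1.18) and Npas2 (0.471 ± 0.177). Dbp exceeded Nr1d2 in 25 of 25 mice, and Per1 exceeded Per3 in 25 of 25 with no overlap of their ranges. The neighbours Nr1d2 and Nr1d1 (15 of 25 mice in that order), Nr1d1 and Per1 (17 of 25) and Per2 and Clock (15 of 25) did not separate beyond the spread between mice.

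The clock genes differed widely in how much they varied between mice of the same group. Within-group SD on the log2 scale was 0.657 for Nr1d1 (higher than 97.9% of all genes tested), 0.506 for Arntl (96.6%) and 0.345 for Dbp (92.3%), against 0.145 for the median gene. Per2 (0.282), Per3 (0.265), Clock (0.222) and Cry1 (0.201) lay between the 71.8 and 87.4 percentiles. Per1 (0.168, 60.3 percentile) and Nr1d2 (0.160, 56.8 percentile) were close to the median gene. Over the 25 mice the highest value was 11.3 times the lowest for Arntl and 5.77 times for Nr1d1, but 1.67 times for Cry1 and 1.81 times for Nr1d2. The plot by group and mouse shows all 10 genes.

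**Figure D1:**
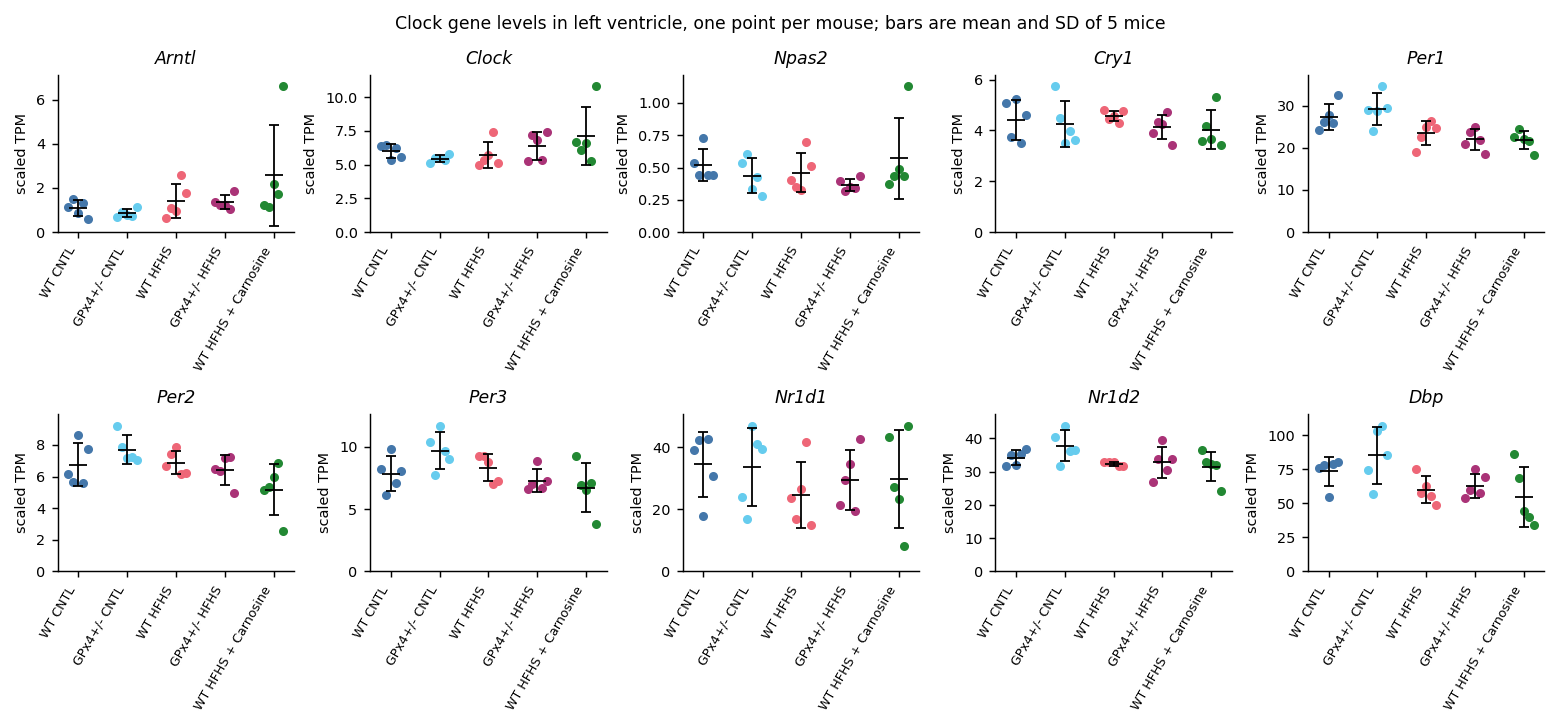
Scaled TPM (linear y axis from 0) of each clock gene in left ventricle, with 1 point per mouse in 5 groups of 5 and black bars for the mean and SD. Per1 is lower in the HFHS groups (means 23.5 and 22.0) than in the CNTL groups (27.3 and 29.1), and 1 WT HFHS + Carnosine mouse lies far above the rest in Arntl at 6.61.

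Arntl (ENSMUSG00000055116.8, GRCm38 chr7:113207465-113314126), the obligate partner of CLOCK and NPAS2, was the least abundant of the tested members. WT CNTL mice had 1.14, 1.50, 0.851, 1.34 and 0.585 scaled TPM, and the GPx4+/- mice on this diet had 0.691, 0.922, 0.789, 0.712 and 1.12. On HFHS it was at 0.628, 1.07, 0.946, 2.57 and 1.78 in WT and at 1.36, 1.21, 1.22, 1.05 and 1.88 in GPx4+/-. All groups overlapped, although 4 of 5 GPx4+/- HFHS mice lay above the highest GPx4+/- CNTL mouse (ratio of means 1.59, two-sided exact permutation test p = 0.0159, unadjusted). Across all genes this difference did not pass the limma test (log2 fold change 0.45, SE 0.223, adjusted p = 0.293), nor did that in WT (0.20, SE 0.223, adjusted p = 0.698). With 1 mouse left out, the WT difference lay between 0.00718 (without WT HFHS replicate 4) and 0.368 (without WT HFHS replicate 1). WT HFHS replicate 4, at 2.57, had the highest smooth muscle marker sum (6 of 6 measured), 634.5 against group medians of 189.5 to 284.1. The part of smooth muscle in its Arntl level was not tested. Almost all of the Arntl TPM came from Arntl-201 (57.4%) and Arntl-206 (38.4%).

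Clock (ENSMUSG00000029238.11, chr5:76209868-76304792) encodes the histone acetyltransferase partner of ARNTL. Its levels stayed between 4.95 and 7.43 scaled TPM in 24 of 25 mice. In WT mice its mean was 6.01 ± 0.521 (SD, n = 5) on CNTL and 5.70 ± 0.983 on HFHS, in GPx4+/- mice it was 5.45 ± 0.251 and 6.41 ± 1.04, and no contrast passed the limma test (smallest adjusted p among the diet contrasts 0.303). Npas2 (ENSMUSG00000026077.15, chr1:39193731-39363236), which can replace CLOCK, lay between 0.282 and 0.726 scaled TPM in 24 of 25 mice, with means in the 4 groups without carnosine from 0.368 ± 0.0465 in GPx4+/- HFHS to 0.517 ± 0.124 in WT CNTL. With no minimum level its log2 fold changes between those 4 groups were between -0.13 and -0.01 and none was called (limma adjusted p of 0.655 to 1).

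Per1 (ENSMUSG00000020893.17, chr11:69095217-69109960), a repressor of CLOCK and ARNTL that also responds acutely to light, feeding and glucocorticoids, was the 1 of the 9 tested members called lower on the HFHS diet over both genotypes, a share near that of all genes called. Its level in WT CNTL was 24.1, 26.2, 27.8, 25.9 and 32.5 scaled TPM, and in WT HFHS 18.9, 22.5, 25.0, 26.3 and 24.7. In GPx4+/- mice it was at 29.0, 23.9, 28.8, 34.6 and 29.4 on CNTL and at 20.9, 23.8, 25.0, 21.8 and 18.5 on HFHS. In GPx4+/-, 4 of 5 HFHS mice lay below the lowest CNTL mouse, and in WT 2 of 5 did, so that the groups overlapped in both genotypes. Over both genotypes Per1 fell by 0.31 on the log2 scale (SE 0.0734, fold change 0.809, limma adjusted p = 0.0139), where 8.33% of all genes tested were called and 3.65% were called lower. In GPx4+/- mice alone it fell by 0.40 (SE 0.104, adjusted p = 0.0428), where 3.34% were called and 1.16% were called lower, and in WT mice alone the difference was -0.22 (SE 0.104, adjusted p = 0.305), where 1.18% were called. No difference between the genotypes in the Per1 diet effect was detected by the interaction term (-0.18, SE 0.147, limma adjusted p = 0.794).

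The call over both genotypes was kept when any of the 20 mice was left out (adjusted p from 0.0067 to 0.0278), whereas the call in GPx4+/- mice alone was lost in 7 of 10 such fits (adjusted p from 0.0175 to 0.119). Those were the fits without GPx4+/- CNTL replicate 1, 3, 4 or 5 and without GPx4+/- HFHS replicate 1, 4 or 5. It was also lost with no minimum level (adjusted p = 0.095) and with no mean-variance trend in limma (adjusted p = 0.0502). With the 3 atrium-rich mice and the hepatocyte-rich mouse left out together, Per1 was at -0.35 over both genotypes (adjusted p = 0.0232) and at -0.48 in GPx4+/- mice (adjusted p = 0.0576). Beside this, the ventricular marker sum was lower on HFHS, with medians of 42840 in WT CNTL and 41570 in GPx4+/- CNTL against 36660 in WT HFHS and 38150 in GPx4+/- HFHS, and 1 of its 6 genes was called lower. Fibroblast markers (5 of 5 measured) summed to 242.7 to 466 and 252.1 to 380.5 on CNTL and to 299.6 to 524.1 and 279.4 to 450.6 on HFHS, in WT and GPx4+/- respectively, and 2 of 5 were called higher. The part of these shifts in the Per1 result was not tested.

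Of the Per1 transcripts, Per1-201 made up 72.4% of the level and Per1-202 14.7%. The shorter Per1-202, chosen for mention after its values were seen, was at 2.93 ± 0.326 (SD, n = 5) on HFHS against 4.27 ± 0.839 on CNTL in WT and at 3.18 ± 0.583 against 4.73 ± 0.794 in GPx4+/- (two-sided exact permutation test p = 0.0159 in each). Per1-201 was at 17.3 ± 4.66 against 18.8 ± 2.75 in WT and at 16.6 ± 3.64 against 20.6 ± 5.32 in GPx4+/- (exact p = 0.556 and 0.206). The E-box window printed for Per1 lies inside the annotated gene.

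Per3 (ENSMUSG00000028957.12, chr4:151003652-151044665), whose start region held the pair of D-box matches, had most of its GPx4+/- HFHS values under those on CNTL. It was at 10.4, 7.70, 11.7, 9.64 and 9.01 scaled TPM in GPx4+/- CNTL and at 6.63, 7.00, 8.88, 6.66 and 7.24 in GPx4+/- HFHS. In WT it was at 8.24, 6.14, 9.78, 7.06 and 8.03 on CNTL and at 9.25, 9.22, 8.75, 7.04 and 7.22 on HFHS. In GPx4+/- mice 4 of 5 HFHS values were below every CNTL value (ratio of means 0.751, two-sided exact permutation test p = 0.0159). Across all genes the difference was -0.38 (SE 0.121, limma adjusted p = 0.0871), short of the threshold. Of 10 fits with 1 mouse left out, it passed in 1, that without GPx4+/- CNTL replicate 2 (adjusted p = 0.0386), the mouse with hepatocyte and atrial markers. Of 10 alternative settings it passed in 2, the replicate block and TPM as deposited. Replicate numbers do not pair the samples, and with TPM as deposited the median of all genes was -0.101. In WT the difference was 0.08 (SE 0.121, adjusted p = 0.789). The interaction term of Per3 was -0.47 (SE 0.171, limma adjusted p = 0.681). By limma 0 of 11984 genes were called for the interaction, with 7.14% of genes, and Per3 alone of the 9 members, at an unadjusted p under 0.05. Only 63.3% of Per3 TPM came from the coding transcript Per3-201, and 25.4% came from the processed transcript Per3-204.

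Per2 (ENSMUSG00000055866.9, chr1:91415982-91459324), the Per gene that is required for sustained rhythms in mice, was at 6.74 ± 1.35 (SD, n = 5) in WT CNTL and 6.88 ± 0.742 in WT HFHS. Its level was 7.71 ± 0.911 in GPx4+/- CNTL and 6.43 ± 0.935 in GPx4+/- HFHS, a difference of -0.25 (SE 0.119, limma adjusted p = 0.270). Cry1 (ENSMUSG00000020038.10, chr10:85131700-85185064), a strong repressor of the loop, ranged only from 3.43 to 5.74 scaled TPM over all mice. Its diet differences were 0.06 in WT and -0.03 in GPx4+/- (SE 0.118 each, limma adjusted p of 0.853 and 0.924), and the latter turned to 0.09 without the atrium-rich and hepatocyte-rich mice.

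Nr1d1 (ENSMUSG00000020889.11, chr11:98767932-98775333), a haem-binding repressor of Arntl, had the widest spread within groups of all members. It was at 39.0, 42.2, 17.7, 42.8 and 30.6 scaled TPM in WT CNTL and at 24.0, 17.0, 46.7, 41.1 and 39.3 in GPx4+/- CNTL. On HFHS it was at 23.8, 16.8, 26.4, 41.8 and 14.9 in WT and at 21.4, 29.3, 34.5, 19.3 and 42.6 in GPx4+/-. The lowest mouse of each of these groups was between 14.9 and 19.3 and the highest between 41.8 and 46.7, and the diet difference of -0.33 over both genotypes did not exceed that spread (SE 0.223, limma adjusted p = 0.394). Without the atrium-rich and hepatocyte-rich mice it was -0.58 (SE 0.185, adjusted p = 0.0694). Its exons share 263 bases (8.55%) with Thra on the opposite strand, whose level stayed between 37.3 and 53.7 scaled TPM. The kit marked strand, and the strand setting of the counting is not given in the sources used here. Nr1d2 (ENSMUSG00000021775.11, chr14:18204054-18239127), its paralogue, was far steadier, from 31.6 to 33.0 in the 5 WT HFHS mice and from 24.2 to 43.9 over all mice, and its diet difference was -0.14 (SE 0.0611, limma adjusted p = 0.166).

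Dbp (ENSMUSG00000059824.12, chr7:45705088-45710203), the D-box activator that reports the output of CLOCK and ARNTL, was the most abundant member and its mean was lower on HFHS in both genotypes, short of the threshold. It was at 75.8, 78.3, 54.3, 78.8 and 79.9 scaled TPM in WT CNTL and at 75.2, 57.6, 62.3, 55.6 and 48.8 in WT HFHS. In GPx4+/- mice it was at 74.3, 56.5, 103, 107 and 85.1 on CNTL and at 53.5, 59.8, 74.9, 57.5 and 69.2 on HFHS. The 5 HFHS mice of each genotype were below the median of their CNTL group, and the groups overlapped. Over both genotypes the difference was -0.35 (SE 0.110, limma adjusted p = 0.0558). It passed in 4 of the 20 fits that left out 1 mouse (adjusted p from 0.0117 to 0.0989), namely those without WT CNTL replicate 3, GPx4+/- CNTL replicate 2, WT HFHS replicate 1 or GPx4+/- HFHS replicate 3. Without the atrium-rich and hepatocyte-rich mice the difference was -0.51 (SE 0.086, adjusted p = 0.00312), and in GPx4+/- mice alone it went from -0.41 (adjusted p = 0.163) to -0.61 (adjusted p = 0.0244). Sphk2 on the opposite strand shares 539 exon bases (18.0%) with Dbp, at a mean of 8.89 scaled TPM.

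Across the diet contrasts the 6 members grouped by phase opposite to Arntl (Per1, Per2, Per3, Nr1d1, Nr1d2 and Dbp) had negative differences in 6 of 6 cases in GPx4+/- mice and in 6 of 6 over both genotypes. Cry1, a repressor of the loop that this grouping by phase leaves out, was at -0.03 in GPx4+/- mice and at 0.01 over both genotypes. Their median difference was -0.32 in GPx4+/- mice and -0.23 over both, beside medians of -0.00165 and -0.00241 for all genes tested, and 1 of the 6 (Per1) was called in each, where 3.34% and 8.33% of all genes were called and 1.16% and 3.65% were called lower. In GPx4+/- mice 5 of the 6 and over both genotypes 3 of the 6 had an unadjusted limma p under 0.05, where 18.3% and 24.5% of all genes did. In WT mice 4 of the 6 were negative (median -0.15), 0 were called by limma, beside 1.18% of genes, and 0 had an unadjusted p under 0.05, beside 16.5% of genes. The WT and GPx4+/- contrasts have no mice in common, and each enters the contrast over both. No clock gene had groups without overlap in either diet contrast, a pattern that 4.51% of all genes showed in WT and 4.47% in GPx4+/-.

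**Figure D2:**
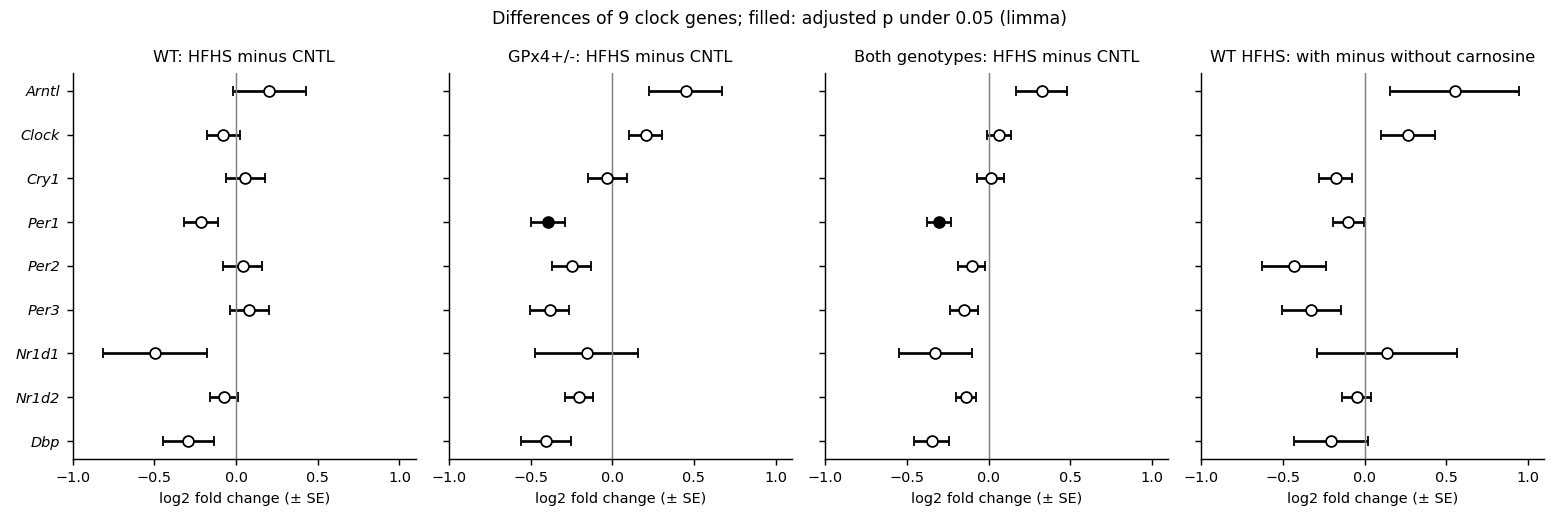
Log2 fold changes (x axis) of the 9 tested clock genes with standard errors in 4 contrasts, where a filled point marks an adjusted p under 0.05 by limma. Only Per1 in GPx4+/- mice (-0.40) and over both genotypes (-0.31) is filled, and 0 of 9 are filled for carnosine.

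Between genotypes, 0 of the 9 tested clock genes passed the limma test. On CNTL the smallest adjusted p was that of Per3, at 9.69 ± 1.51 (SD, n = 5) in GPx4+/- against 7.85 ± 1.36 in WT (0.29, SE 0.121, unadjusted p = 0.0261, limma adjusted p = 0.765). On HFHS the smallest limma adjusted p of any member was 0.978. All genes tested gave 6 calls on each diet (0.0501%) and 7 over both diets (0.0584%), and 6.28% and 4.57% of genes had an unadjusted p under 0.05 on CNTL and HFHS, among them 1 and 0 of the 9 members. Groups without overlap between genotypes were found for 0 members on either diet, against 0.926% of genes on CNTL and 0.726% on HFHS.

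Carnosine in WT HFHS mice gave 0 calls among the clock genes and 0 among all 11984 genes by limma, with 4.21% of genes and 0 of the 9 members at an unadjusted p under 0.05. Per2 was at 5.15, 5.37, 5.96, 6.85 and 2.54 scaled TPM with carnosine and at 6.67, 7.44, 7.85, 6.17 and 6.25 without. The carnosine mice were below every mouse without carnosine in 4 of 5 cases, and replicate 4 lay among them. The two-sided exact permutation test of its means gave p = 0.0397, and the limma difference was -0.43 (SE 0.198, adjusted p = 0.947), or -0.22 (SE 0.1, adjusted p = 1) without replicate 5. Arntl was at 1.24, 1.12, 2.19, 1.73 and 6.61 with carnosine, and its difference of 0.55 (SE 0.394, adjusted p = 0.947) became 0.19 (SE 0.279, adjusted p = 1) without that mouse. Dbp was at 86.2, 68.2, 44.2, 39.8 and 34.1 with carnosine, and its difference moved from -0.21 to -0.06. Leaving out that mouse turned the sign for Nr1d1 (0.14 to -0.08) and for Nr1d2 (-0.05 to 0.04). No member had groups without overlap, against 0.609% of all genes.

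WT HFHS + Carnosine replicate 5 held the highest or the lowest value of all 25 mice for 10 of 10 clock genes. It was highest for Arntl (6.61 against 0.585 to 2.57 in the other 24 mice), Clock (10.8 against 4.95 to 7.43), Npas2 (1.13 against 0.282 to 0.726) and Nr1d1 (47.0 against 8.14 to 46.7). It was lowest for Per2 (2.54 against 4.93 to 9.23), Per3 (3.78 against 6.14 to 11.7), Dbp (34.1 against 39.8 to 107), Nr1d2 (24.2 against 26.8 to 43.9), Per1 (18.4 against 18.5 to 34.6) and Cry1 (3.43 against 3.44 to 5.74). Relative to the median of the other mice, Arntl was 5.85 times as high and Per2 was 0.376 of it. For Per1, Cry1 and Nr1d1 this mouse lay at the edge of the range of the others, and for the other 7 genes it lay apart from it.

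**Figure D3:**
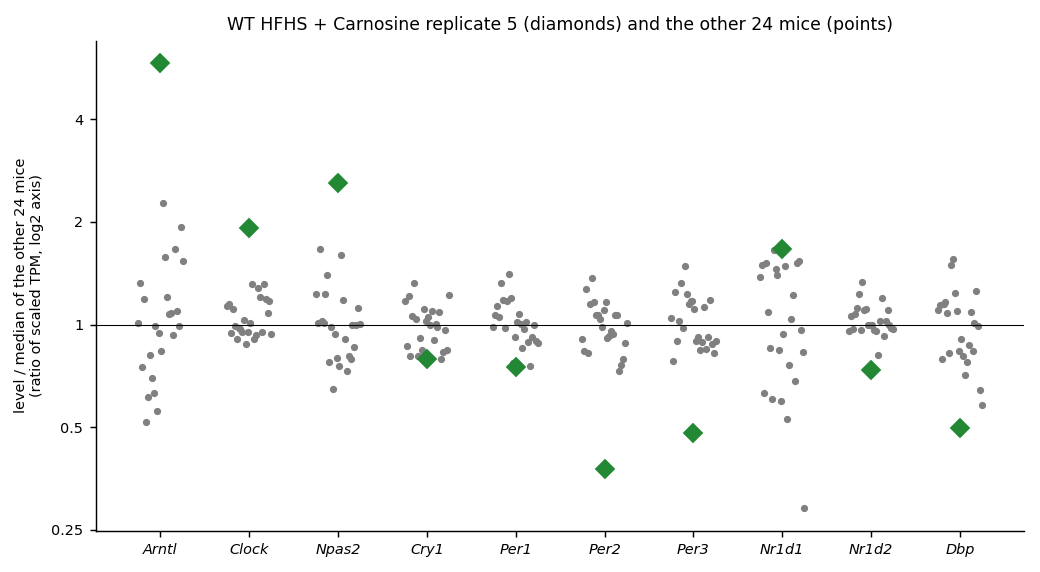
Ratio of each mouse's scaled TPM to the median of the 24 mice other than WT HFHS + Carnosine replicate 5 (y axis on a log2 scale), with that mouse as a diamond and the others as points. The diamond lies at 5.85 for Arntl, 1.92 for Clock and 2.60 for Npas2, and at 0.376 for Per2, 0.481 for Per3 and 0.497 for Dbp.

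Of the 12 other loop genes, 3 were lowest in that mouse and 1 (Rorb, under 1 scaled TPM in all mice) was highest. Tef and Hlf, which like Dbp encode D-box activators, were at 49.9 (83.9 to 123 in the other 24) and 4.77 (6.87 to 14.4), and Cry2 was at 10.1 (13.8 to 20.3). Ciart, Bhlhe40, Nfil3 and Rora were among the 8 of 12 that lay within the range of the other mice. Over all genes tested this mouse was highest or lowest for 16.0% of genes, the second of 25 mice after GPx4+/- CNTL replicate 3 (17.6%), which was highest or lowest for 2 of the 10 clock genes. Its scaling factor, mitochondrial share (42.3% of TPM, 31.3 to 48.7% over all mice) and number of genes at 1 TPM (11832, 11652 to 12305) lay within the range of the libraries, and its atrial (100.4) and hepatocyte (2.39) marker sums were within the range of its group. Its endothelial markers (5 of 5 measured) summed to 275.7, the highest of its group (from 212.9), and its fibroblast markers to 274.9, the lowest of its group (to 418.7). Whether it differed in hour of collection, bolus or dissection was not tested.

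Over single mice the clock genes varied together, in pairs of the same and of opposite sign. Pearson's r and Spearman's rho were taken on log2(scaled TPM + 0.5) with group means removed, with p from 100000 permutations. Of 45 pairs, 13 had a Benjamini-Hochberg adjusted permutation p under 0.05 for Pearson's r over the 25 mice (5 positive and 8 negative, 14 by Spearman's rho), and 12 did in the 24 mice without WT HFHS + Carnosine replicate 5, of which 10 were the same pairs. The sign of r was the same in 37 of 45 pairs. All pairs come from the same 25 hearts and are not separate observations.

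Pairs with Nr1d1 were among those that kept their r without that mouse. Nr1d1 was higher in mice where Clock was higher (r = 0.73, rho = 0.73, adjusted permutation p = 0.0063 and 0.0027, r = 0.73 in 24 mice). It ran against Cry1 (r = -0.72, rho = -0.74, adjusted permutation p = 0.0063 and 0.0027, r = -0.70 in 24 mice) and against Per2 (r = -0.67, rho = -0.67, adjusted permutation p = 0.0228 and 0.00531, r = -0.67 in 24 mice). Without the 2 mice farthest from the median of Clock, Cry1 or Per2, these r were 0.715, -0.733 and -0.66. Cry1 and Per2 moved together (r = 0.66, rho = 0.66, adjusted permutation p = 0.0132 and 0.0121, r = 0.74 in 24 mice and 0.705 without the 2 mice farthest in Cry1). Nr1d1 and Dbp, which are both switched on by CLOCK and ARNTL, were related at r = 0.54 (rho = 0.53, adjusted permutation p = 0.0757 and 0.0583) over 25 mice and at r = 0.79 (adjusted permutation p = 0.00247) over 24 mice, and at 0.465 without the 2 mice farthest in Nr1d1.

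The relations of Arntl leaned on that mouse to a larger degree. Arntl and Per3 were opposed at r = -0.78 (rho = -0.71, adjusted permutation p = 0.0063 and 0.00531), at -0.58 in 24 mice (adjusted permutation p = 0.0269) and at -0.54 without it and WT HFHS replicate 4. Arntl and Per2 were at r = -0.76 (rho = -0.73, adjusted permutation p = 0.0121 and 0.00531), at -0.49 in 24 mice (adjusted permutation p = 0.0652) and at -0.472 without the same 2 mice. Arntl and Clock were at r = 0.775 (rho = 0.67, adjusted permutation p = 0.0121 and 0.00915), at 0.56 in 24 mice (adjusted permutation p = 0.0561) and at 0.36 without the same 2 mice, so that its size rests on those mice. Arntl and Dbp, a pair often used as opposite phases, were at r = -0.52 (rho = -0.37, adjusted permutation p = 0.0862 and 0.190), at -0.35 in 24 mice and at -0.374 without the same 2 mice. Npas2, at levels under 1 scaled TPM in 24 mice, was opposed to Dbp at r = -0.64 (rho = -0.52, adjusted permutation p = 0.0227 and 0.0520), at -0.54 in 24 mice and at -0.461 without the 2 mice farthest in Npas2.

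Counted by phase, with Arntl, Clock, Npas2 and the delayed Cry1 as one arm and the other 6 genes as the other arm, 18 of 24 pairs of opposite arms had a negative r (median -0.32) and 17 of 21 pairs within an arm had a positive r (median 0.40). In the 24 mice these were 15 of 24 (median -0.17) and 16 of 21 (median 0.25). The 4 called pairs that ran against this split were Clock with Nr1d1 and Cry1 with Per2 (positive across arms), and Per2 with Nr1d1 and Clock with Cry1 (negative within an arm). Clock and Cry1 were at r = -0.515 (rho = -0.505, adjusted permutation p = 0.0337 and 0.0403, -0.501 in 24 mice and -0.448 without the 2 mice farthest in Clock). Nr1d2 tracked Per3 (r = 0.72, rho = 0.50, adjusted permutation p = 0.0063 and 0.0490, 0.55 in 24 mice and 0.479 without the 2 mice farthest in Per3) and Dbp (r = 0.70, rho = 0.61, adjusted permutation p = 0.0063 and 0.0175, 0.61 in 24 mice and 0.58 without the 2 mice farthest in Nr1d2). Per1 was in none of the 13 pairs called, and its highest r was 0.46, with Nr1d2.

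**Figure D4:**
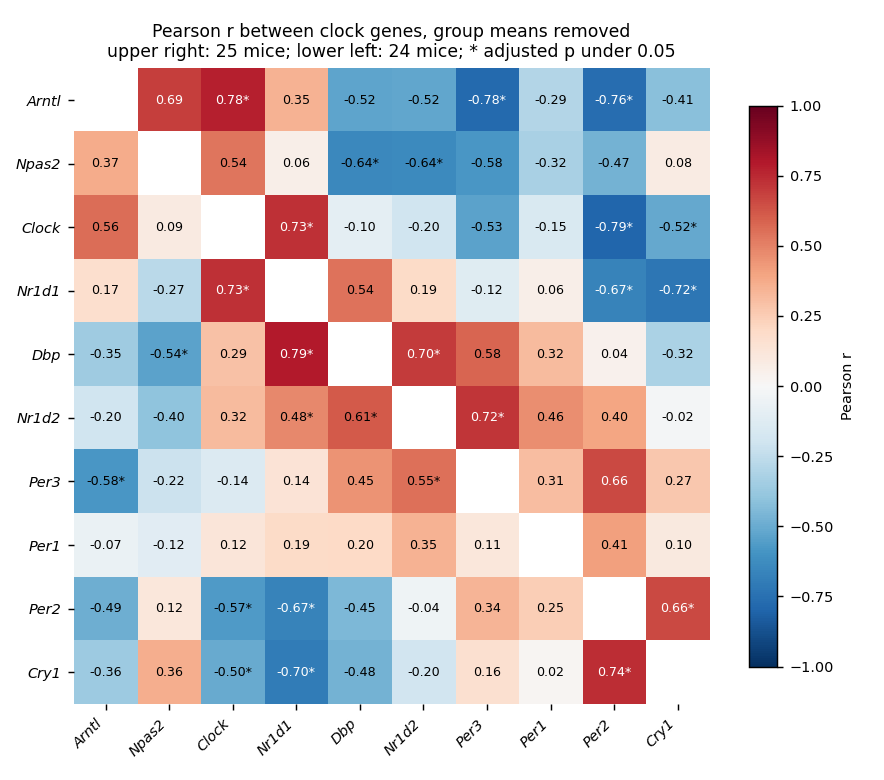
Pearson r between pairs of clock genes over mice after removal of group means, with all 25 mice above the diagonal and the 24 mice without WT HFHS + Carnosine replicate 5 under it; colour runs from -1 (blue) to 1 (red) and stars mark an adjusted permutation p under 0.05. Nr1d1 with Cry1 is -0.72 above and -0.70 under the diagonal, whereas Arntl with Per2 is -0.76 and -0.49.

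**Figure D5:**
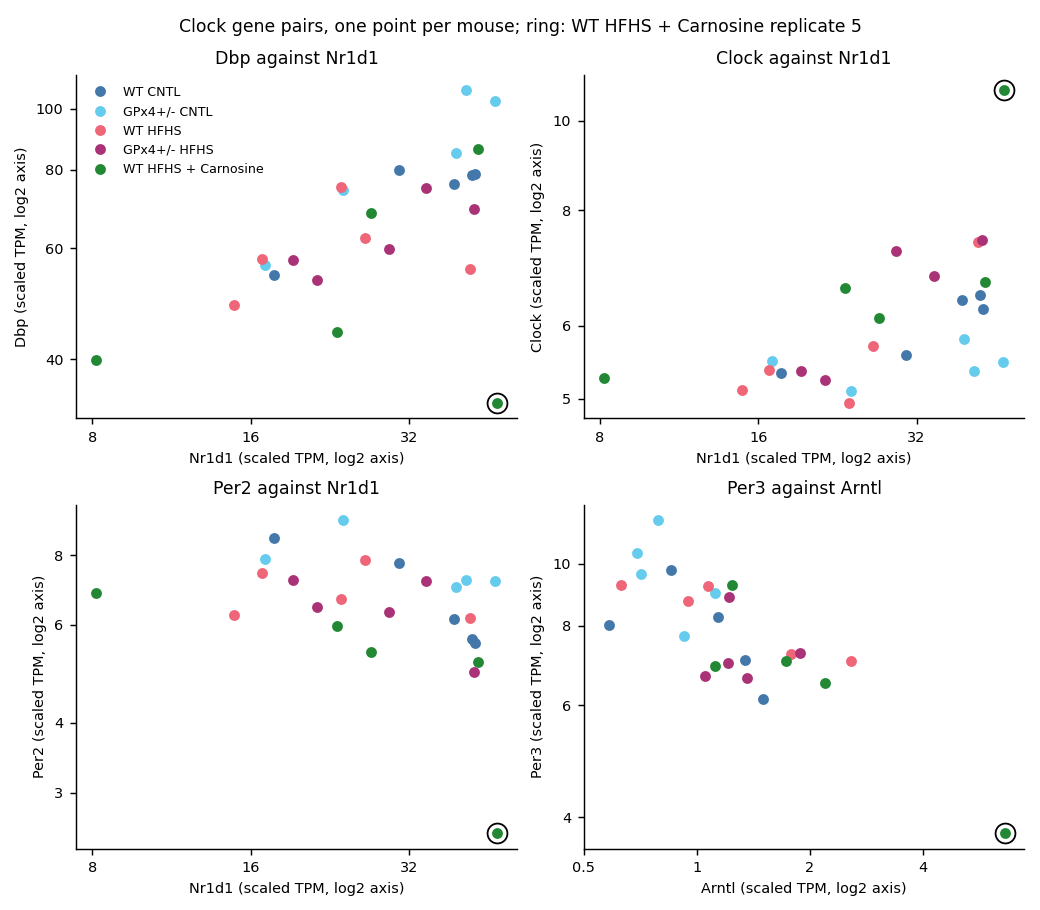
Scaled TPM of 4 gene pairs (both axes on a log2 scale), with 1 point per mouse coloured by group and a ring around WT HFHS + Carnosine replicate 5. The ringed mouse holds the highest Nr1d1 (47.0) with the lowest Dbp (34.1), away from the line of the other 24 mice (r = 0.79 with group means removed), while in Clock against Nr1d1 it lies at the upper end of the trend.

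Among all 11983 other genes tested, those most like Arntl over the 25 mice (Pearson r, group means removed) were Rcan1 (0.82), Soga1 (0.78), Clock (0.78), Plpp3, Ngly1, Pfkp, Ckap4, Hsp90aa1, Plekha1 and Slc38a2 (0.75). Those most opposed were Chd1l (-0.83), Mid1ip1 (-0.83), Lonrf1, Gpr137c, Tef (-0.81), Art1, Per3 (-0.78), Cirbp, Per2 (-0.76) and Slc25a33 (-0.76). Clock was thus the third most alike, and Per3 the seventh and Per2 the ninth most opposed of 11983. In 24 mice the ranks were 133 for Clock, 56 for Per3 and 186 for Per2, and 1 of the 10 most alike (Soga1) and 4 of the 10 most opposed (Chd1l, Gpr137c, Lonrf1 and Mid1ip1) stayed in those lists. These r are descriptions over mice that share group and library, with no test.

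The genes around the core loop were counted by lists written from general knowledge. Of the 12 other loop genes 11 were tested, and over both genotypes 1 was called higher and 2 lower on HFHS (median -0.11, all genes -0.00241), where 8.33% of all genes were called and 3.65% were called lower. Ciart, a repressor of CLOCK and ARNTL, was at 14.0 ± 2.46 (SD, n = 5) on CNTL and 8.44 ± 1.71 scaled TPM on HFHS in WT and at 14.0 ± 4.78 and 10.2 ± 1.74 in GPx4+/-, and fell over both genotypes (-0.55, SE 0.131, limma adjusted p = 0.0126). Cry2 fell by 0.21 (SE 0.0456, limma adjusted p = 0.00882), and Nfil3, which represses through the D-box, rose by 0.32 (SE 0.0847, limma adjusted p = 0.0238). In GPx4+/- mice alone Cry2 was the 1 gene called (-0.24, limma adjusted p = 0.0496), where 3.34% of all genes were called. In WT mice alone 0 of 11 were called by limma, with 4 at an unadjusted p under 0.05, beside 16.5% of all genes.

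Of 9 tested genes for turnover of clock proteins, 0 passed by limma in any contrast, with 1 to 4 at an unadjusted p under 0.05, and their median diet difference over both genotypes was -0.015. Among 9 clock-controlled output genes (median -0.00583 over both genotypes) 1 was called lower in each diet contrast, namely Kcnip2, the accessory subunit of the transient outward potassium channel. Of all genes, 1.18% were called in WT, 3.34% in GPx4+/- and 8.33% over both genotypes, so that 1 of 9 over both is near the share of all genes. Kcnip2 fell from 75.0 ± 10.3 (SD, n = 5) to 49.6 ± 8.38 scaled TPM in WT and from 77.3 ± 6.11 to 51.0 ± 5.56 in GPx4+/- (-0.60 over both, SE 0.0804, limma adjusted p = 0.000173).

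Per1 also belongs to the 8 glucocorticoid response genes, of which 1 was called higher and 2 lower over both genotypes (median 0.07), where 8.33% of all genes were called and 3.65% were called lower. Klf9 was called lower with it (-0.19, SE 0.0458, limma adjusted p = 0.0155) and Sgk1 higher (0.21, SE 0.0611, limma adjusted p = 0.0388). Of 7 tested fasting response genes (median -0.32) 2 were called lower over both genotypes, beside the same 3.65% of all genes, namely Cpt1a, which admits fatty acids to mitochondria (-0.37, SE 0.0742, limma adjusted p = 0.00447), and Ucp3, a mitochondrial carrier (-0.62, SE 0.188, limma adjusted p = 0.0476). Of 7 tested immediate early genes (median -0.03 over both genotypes) 0 were called by limma in any diet contrast, beside 1.18% of all genes in WT, 3.34% in GPx4+/- and 8.33% over both genotypes. At an unadjusted p under 0.05 there were 0 of 7 in WT, 1 in GPx4+/- and 1 over both, beside 16.5%, 18.3% and 24.5% of all genes. The 1 gene over both genotypes, named after its values were seen, was Fos (-0.76, SE 0.244, limma adjusted p = 0.0595). In the carnosine contrast 0 genes of these 6 lists were called by limma, and 1 gene, in the turnover list, had an unadjusted p under 0.05. The part of feeding state or of glucocorticoids in the Per1 difference was not tested.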

How the data were processed

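RNA of 25 left ventricles, 5 mice in each of 5 groups, was measured by stranded poly(A) RNA-seq. The authors deposited TPM per transcript; the submitters' processing notes name kallisto 0.43.1, sleuth 0.30.0 and GRCm38. Columns were matched to mice by the library names in the header, since the column positions written in the labels disagree with it. The transcript length column was not used, and 0 sample columns were left out. Of 119215 transcripts, 116772 matched GENCODE M21 genes, and TPM was summed per gene and divided by a median-ratio factor per library. The design had foreseen a count test, but the values are TPM, so limma 3.58.1 (R 4.3.3) with a mean-variance trend was run on log2(scaled TPM + 0.5) for genes with a mean of at least 1 scaled TPM; fold changes are on that scale and understate low genes. A Benjamini-Hochberg adjusted p under 0.05 was a call. Diet and genotype were fitted on 4 groups and carnosine on the WT HFHS groups. The limma p-values set each group difference against a spread between mice that was shared over groups and moderated over genes. The correlation p-values came from mice permuted within groups. Python 3.11.15, numpy 2.4.6, pandas 2.3.3, scipy 1.17.1 and matplotlib 3.10.9 gave two-sided exact permutation tests (smallest possible p = 0.00794) and correlations with 100000 permutations.

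In simulated data 200 of 11984 genes, drawn at random, were changed by 1 on the log2 scale. Of these, 94% were recovered for diet in WT, 99% for diet over both genotypes and 94% for carnosine. For a change of 0.5 the shares were 72%, 87% and 71.5%. Each gene kept its own spread, so the shares describe the mix of all genes tested. The median gene had a within-group SD of 0.145, against 0.657 for Nr1d1, 0.506 for Arntl and 0.345 for Dbp. Recovery at those wider spreads was not measured separately. The members and lists were chosen with earlier results of these data known. All 10 members are described; of the other lists at most the 4 called genes with the smallest p per contrast were to be named, of the genes like Arntl the 10 highest and 10 lowest r, and Gpx4 as a check of genotype. Alternatives covered the pseudocount, filter, scaling, replicate block, array weights, samples fitted and each mouse left out. Some results for genes of the other lists are not reported here.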

Additional observations from a re-analysis of the deposited data

Results flagged for a closer look

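In 50 sets of 5 mice (10 genes in 5 groups), 5 held a mouse whose gap to its nearest neighbour took up more of the group's range than Dixon's critical value of 0.71, where chance gives about 2.5 such sets. In 3 of the 5 it was WT HFHS + Carnosine replicate 5, the highest of its group for Arntl (gap 0.805 of the range), Clock (0.743) and Npas2 (0.852). Per3 was highest in GPx4+/- HFHS replicate 3, at 8.88 scaled TPM, with a gap of 0.727. Dbp was lowest in WT CNTL replicate 3, at 54.3 scaled TPM, with a gap of 0.84, and this was also one of the atrium-rich mice; the part of atrial tissue in its Dbp level was not tested.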

How the results depend on the processing

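Of the values that answer a comparison, 173 kept their side of the threshold under an alternative, 13 gained calls and 9 lost them, and no value turned a called direction. For diet in GPx4+/- mice 1 clock gene (Per1) was called; 0 were called with no filter on low values or with no mean-variance trend (the cause was not tested beyond the larger number of genes in the former, 25881 against 11984), and 2 with TPM as deposited, which moved the median of all genes by -0.101. Leaving out each mouse gave 0 to 3 calls there, the 3 being Per1, Per3 and Dbp without GPx4+/- CNTL replicate 2. Over both genotypes 1 clock gene (Per1) was called, and 2 (Per1 and Dbp) were called with a minimum of 5 scaled TPM, with TPM as deposited, with quantile normalization, with array weights, and without the atrium-rich and hepatocyte-rich mice, an alternative chosen after seeing the data; leaving out each mouse gave 1 to 2. Per1 was called over both genotypes in 10 of 10 alternatives (adjusted p of 0.00947 to 0.0361, limma) and in GPx4+/- mice in 7 of 10 (0.0297 to 0.095). The 13 correlated pairs became 27 when group means were not removed, and 10 to 15 under the other settings; leaving out WT HFHS + Carnosine replicate 5 was chosen after seeing the data. Called genes over the whole table for diet in WT were 142, against 43 with no filter, 38 with TPM as deposited, 68 with the replicate block, 405 with array weights and 36 to 202 with 1 mouse left out; in GPx4+/- mice they were 400, against 235 with no filter and 191 to 484 with 1 mouse left out.

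Replicate numbers label different animals and do not pair the samples: deviations of same-numbered mice correlated at -0.341 to 0.234 over 50 pairs of libraries, and 7 of 50 were the best match. With the replicate block 2 clock genes (Per1 and Per3) were called for diet in GPx4+/- mice, and 1 over both genotypes. TPM holds no read depth, so the precision of low genes such as Npas2 and Arntl is unknown, and with 5 mice a group the smallest exact p is 0.00794.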
